A study of Mus musculus with 8 samples.

Results

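The proteasome subunit genes of mouse haematopoietic stem cells were taken as the rows whose symbol is Psma, Psmb, Psmc or Psmd followed by a number, without the immunoproteasome subunits Psmb8, Psmb9 and Psmb10. This gave 36 of the 24222 symbols counted: 16 genes of the 20S core (Psma and Psmb) and 20 genes of the 19S cap (Psmc and Psmd). Of these, 35 passed the filter on low counts, among 11498 genes in all: 15 of the core and each of the 20 of the cap. The cells were sorted by flow cytometry from bone marrow of 4 Kdm4a, Kdm4b and Kdm4c triple knockout (KO) mice and 4 wild-type (WT) control mice, both labelled C57BL6, 2 weeks after induction. RNA of each mouse was sequenced as 1 library. The sources used here do not give the way of induction, the cells in which the alleles were deleted, the sort markers or the age of the mice. KDM4A, KDM4B and KDM4C remove methyl groups from lysines of histone H3, and the comparison asks what their joint loss does to the RNA of these cells.

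The proteasome is the protease that degrades proteins marked with ubiquitin chains. Its 20S core is a barrel of stacked rings, in which alpha subunits form the gated outer rings and beta subunits the inner rings that hold the active sites. The 19S cap sits on the ends of the barrel, where a ring of ATPases unfolds the substrate and a lid removes its ubiquitin. Blood stem cells are known for a low rate of protein synthesis and for sensitivity to misfolded proteins. Subunit genes are known to be raised together by the transcription factor NFE2L1 when proteasome activity falls.

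Total counts were 5541504 to 14872493 per KO library and 3594315 to 6044289 per WT library, and the 36 genes together took 0.260% to 0.298% of KO counts and 0.247% to 0.286% of WT counts. Kdm4a, Kdm4b and Kdm4c had lower RNA in each KO mouse than in any WT mouse, with log2 fold changes of -0.87, -1.40 and -1.71. Only the fall of Kdm4c passed edgeR's quasi-likelihood test over all genes (adjusted p 2.06e-05, against 0.132 for Kdm4a and 0.142 for Kdm4b). With DESeq2, Kdm4a passed as well (adjusted p 0.0463). The 12 genes of the stem cell list were all measured. The list includes Cd34, Flt3 and Cd48, so it is not limited to genes particular to stem cells. Their sum was 3507 to 3887 CPM (counts scaled to a common library size) in KO mice and 4123 to 4393 CPM in WT mice. Each KO sum lay below each WT sum, with 0 genes of the list called in either direction by edgeR. Summed markers of macrophages and dendritic cells lay at 206 to 281 CPM in KO mice and 97.3 to 202 CPM in WT mice, with Siglech at 0 in every library, Cd68 and Cd74 called higher and Mrc1 lower by edgeR. Megakaryocyte markers summed to 373 to 403 CPM in KO mice and 260 to 304 CPM in WT mice, with Itga2b and Gp1ba called higher and Thbs1 lower. Erythroid markers summed to 1338 to 1537 CPM in KO mice and 2293 to 2510 CPM in WT mice. Most of that sum was 1 gene, Car2, at 1306 ± 84.9 CPM in KO mice and 2286 ± 111 CPM in WT mice (SD, n = 4), the only gene of the erythroid list that was called. The sums overlapped for neutrophil and monocyte markers (32.4 to 74.6 CPM in KO mice, 29.6 to 57.3 CPM in WT mice), lymphocyte markers (31.9 to 52.6 CPM in KO mice, 21.5 to 45.1 CPM in WT mice) and mast cell markers (2.21 to 7.93 CPM in KO mice, 1.91 to 9.79 CPM in WT mice). The part of these shifts in the values of the proteasome genes was not tested, and in sorted bulk samples fewer cells of a type and less RNA per cell cannot be told apart.

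No proteasome subunit gene passed the test in either direction in KO cells. By edgeR's quasi-likelihood test over all genes, 0 of 35 were higher and 0 of 35 lower at an adjusted p of 0.05, a threshold that 0.252% of all genes tested passed as higher and 0.330% as lower. DESeq2 and limma voom also called 0 of 35 in either direction, against 0.678% higher and 0.661% lower among all genes by DESeq2 and 0.235% and 0.217% by limma voom. At an unadjusted p under 0.05, 1 member was higher (Psmc4) and 1 lower (Psma8), against 5.75% and 5.45% of all genes. The smallest adjusted p among the members was 0.315.

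The intervals around these differences were narrow for most members. The 95% interval of the fold change, not corrected for the number of genes, lay within 2-fold in either direction for 31 of 35 members, against 67.4% of all genes tested, and within 1.5-fold for 25 of 35, against 32.9%. All genes tested were not matched to the members for level. The exceptions at 2-fold were Psma8, Psmb3, Psmb5 and Psmc4. The first 3 of these rested on few counts, with lowest libraries of 27, 17 and 21 counts.

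**Figure D1:**
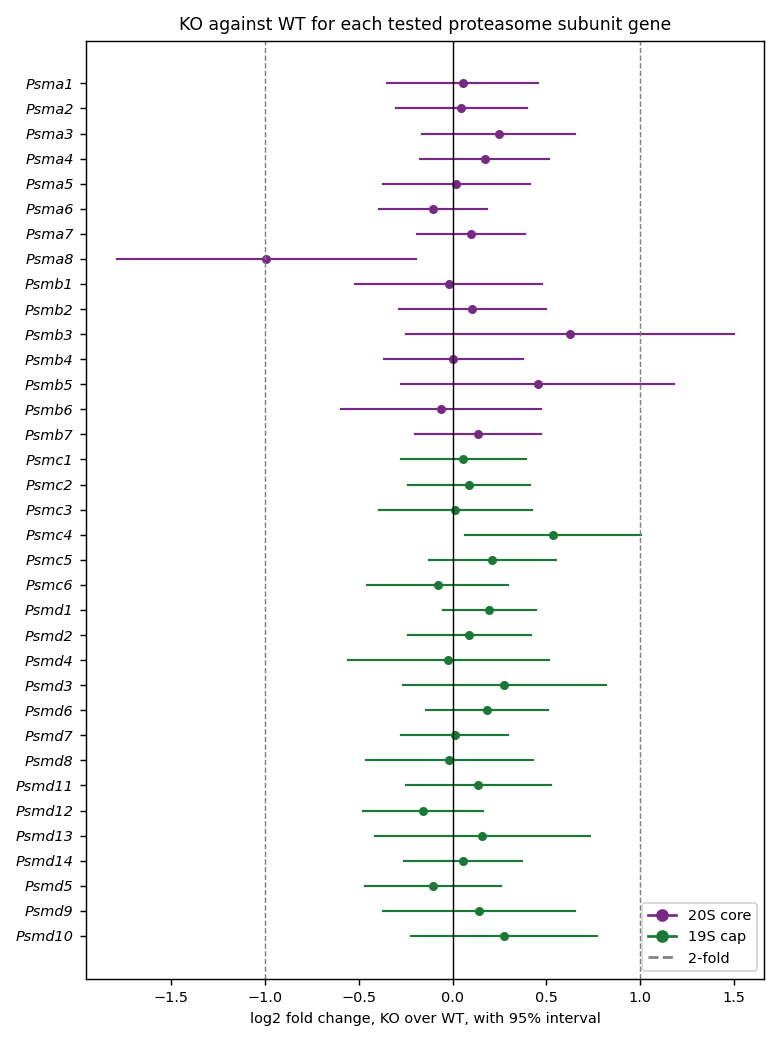
Log2 fold change of each tested proteasome subunit gene, KO over WT, with its 95% interval from the edgeR fit (4 KO and 4 WT mice). Purple marks the 20S core, green the 19S cap, and dashed lines a 2-fold difference. Most points sit close to 0, and 31 of the 35 intervals stay between the dashed lines.

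Although no gene passed, more members lay above than below a fold of 1. In KO, 26 of 35 members had a log2 fold change above 0, against 50.2% of all genes. The median log2 fold change was 0.05 over the 15 core genes and 0.09 over the 20 cap genes, against 0.00 over all genes tested. KO mouse 1 stood apart here: it had the highest level of 15 of the 35 members and the lowest of none (0 of 35), whereas it was the highest library for 15.003% of all genes tested and the lowest for 14.5%. WT mouse 4 was the next, highest for 7 of the 35 members and for 9.11% of all genes tested. Without KO mouse 1, 20 of 35 members had a log2 fold change above 0. The medians were then 0.01 for the core and 0.05 for the cap, against -0.01 over all genes. Without WT mouse 3 the count was 21 of 35, without WT mouse 2 it was 24, and without KO mouse 2 it was 29. Leaving out any other mouse gave 25 to 27.

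The mean level of the core genes and that of the cap genes were both highest in KO mouse 1. On a log2 scale centred per gene, the 15 core genes averaged 0.27, -0.03, -0.04 and -0.06 in KO mice 1 to 4, against 0.06, -0.17, -0.12 and 0.10 in WT mice 1 to 4. The 20 cap genes averaged 0.18, -0.08, 0.03 and 0.08 in KO mice 1 to 4, against -0.12, -0.05, -0.11 and 0.07 in WT mice 1 to 4. The groups overlapped in both parts of the particle. For the cap, KO mice 1 and 4 lay above every WT mouse, KO mouse 4 only just (0.0754 against 0.0738 in WT mouse 4). KO mice 2 and 3 lay among the WT mice. For the core, 3 of the 4 KO mice lay below WT mice 1 and 4. The core mean includes Psma8, a gene with few counts that was lower in KO mice. Without it, a choice made after seeing the data, the core averaged 0.31, -0.04, 0.02 and -0.02 in KO mice 1 to 4. WT mice 1 to 4 were then at 0.05, -0.23, -0.18 and 0.08, and the groups still overlapped.

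**Figure D2:**
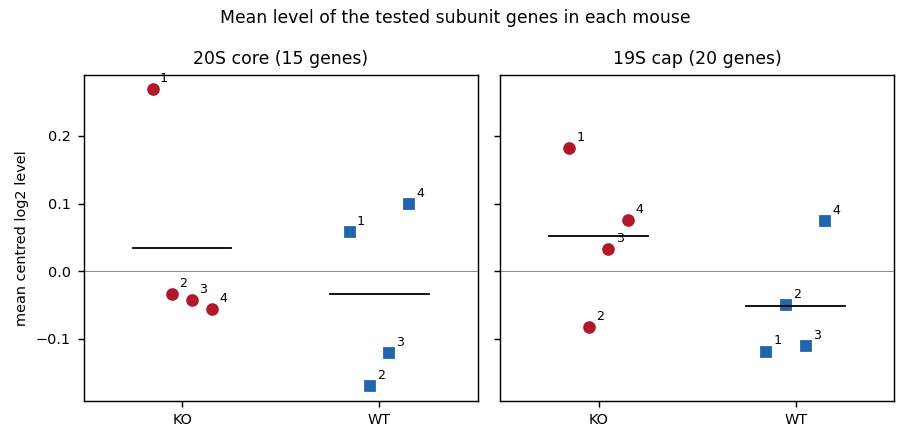
Mean log2 level of the tested 20S core genes (left, with Psma8) and 19S cap genes (right) in each mouse. Levels are centred per gene over the 8 libraries, with the mouse number beside each point and the group mean as a line. KO mice are red circles and WT mice blue squares. KO mouse 1 is highest in both panels, at 0.27 for the core and 0.18 for the cap. The other KO mice lie among the WT mice, except that KO mouse 4 is just above WT mouse 4 for the cap.

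The beta ring holds the catalytic subunits Psmb5, Psmb6 and Psmb7, which carry the chymotrypsin-like, caspase-like and trypsin-like activities. Psmb5 (chromosome 14, 54614119 to 54618022, minus strand, mm10) was at 14.7, 11.5, 12.3 and 8.36 CPM in KO mice 1 to 4, against 10.7, 5.87, 6.27 and 10.6 CPM in WT mice 1 to 4. KO mice 1 to 3 lay above each WT mouse and KO mouse 4 between them, so the groups overlapped. The log2 fold change was 0.45 (SE 0.353, 95% interval -0.27 to 1.18, adjusted p 0.692 by edgeR).

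Psmb6 (chromosome 11, 70525367 to 70527858) was at 28.6, 19.4, 26.9 and 27.1 CPM in KO mice 1 to 4, against 23.9, 15.1, 26.4 and 37.3 CPM in WT mice 1 to 4. The KO range lay inside the WT range. Its log2 fold change was -0.06 (SE 0.259, adjusted p 0.961 by edgeR), and the sign turned to 0.04 without KO mouse 2 and to 0.18 without WT mouse 4. Psmb7 (chromosome 2, 38588036 to 38644087, minus strand) was at 114, 89.7, 101 and 111 CPM in KO mice 1 to 4, against 102, 70.5, 85.4 and 114 CPM in WT mice 1 to 4. The groups overlapped over most of their range, with a log2 fold change of 0.13 (SE 0.164, adjusted p 0.830 by edgeR). A share of 34.9% of the Psmb7 exons overlaps the antisense gene Nek6. Reads in that part cannot be told apart from those of Nek6 if strand was not used in counting. Exons of another gene also overlapped Psmd13 (17.2%), Psmb5 (12.1%), Psmc3 (10.5%), Psma4 (9.79%), Psmd1 (9.67%), Psma5 (4.84%) and Psmd3 (0.791%). The part of such reads in the levels was not tested.

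The starts of catalytic subunit genes are printed because the regulator NFE2L1 is known to bind antioxidant response elements near proteasome genes. The 300 bases from 250 before to 50 after the RefSeq start (GRCm38.p6) are given for the 2 catalytic genes with an entry and for Psmc4, the cap gene with the smallest p. Capitals mark matches on either strand to TGANNNNGC or to GGGCGG, the GC box. TGANNNNGC is a loose pattern for the core of such an element, and a match need not be an element. CCGGAAG, an ETS core, and CCAAT were also searched and had no match in these 3 windows, and the marked matches do not overlap.
Psmb5 (chr14:54617946-54618245, minus strand): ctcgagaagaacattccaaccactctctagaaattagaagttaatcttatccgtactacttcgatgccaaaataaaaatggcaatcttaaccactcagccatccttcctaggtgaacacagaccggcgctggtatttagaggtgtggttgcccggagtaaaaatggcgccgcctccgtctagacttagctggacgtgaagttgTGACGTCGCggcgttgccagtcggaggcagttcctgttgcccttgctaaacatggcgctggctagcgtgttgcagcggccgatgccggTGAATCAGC
Psmb6 (chr11:70525107-70525406, plus strand): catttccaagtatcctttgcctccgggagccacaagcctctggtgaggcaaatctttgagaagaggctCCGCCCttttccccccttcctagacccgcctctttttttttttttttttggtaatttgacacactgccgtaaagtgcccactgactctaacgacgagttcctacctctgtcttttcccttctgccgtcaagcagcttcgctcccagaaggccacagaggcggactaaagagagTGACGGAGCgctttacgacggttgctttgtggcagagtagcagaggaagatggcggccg
Psmc4 (chr7:28050043-28050342, minus strand): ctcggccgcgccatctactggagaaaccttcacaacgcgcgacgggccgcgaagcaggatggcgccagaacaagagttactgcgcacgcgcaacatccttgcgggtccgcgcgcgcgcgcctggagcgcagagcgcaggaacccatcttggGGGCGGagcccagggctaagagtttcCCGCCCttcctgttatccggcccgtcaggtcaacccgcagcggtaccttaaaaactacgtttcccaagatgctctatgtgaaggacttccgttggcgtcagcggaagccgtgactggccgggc

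In Psmb5 a TGANNNNGC match began 47 bases before the start and another 41 bases after it. In Psmb6 such a match began 9 bases before the start, with a GC box 182 bases before it. Psmc4 had no TGANNNNGC match and GC boxes that began 99 and 73 bases before the start. Psma8, Psmb1, Psmb2, Psmb7, Psmc3, Psmd3 and Psmd7 had no entry. Over the 31 windows of the other 29 members, 58.1% held TGANNNNGC, against 41.3% of all 32851 windows of this length. CCGGAAG was in 35.5% of member windows and 8.9% of all, GGGCGG in 58.1% and 35.7%, and CCAAT in 38.7% and 37.4%. These shares describe letters in a window and were not tested.

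Of the other beta subunits, none passed the test. Psmb3 (chromosome 11, 97703399 to 97713500), a structural subunit, had the highest fold of the core at a low level. It was at 10.7, 4.53, 7.55 and 10.4 CPM in KO mice 1 to 4, against 6.24, 4.76, 4.90 and 4.84 CPM in WT mice 1 to 4. KO mouse 2 lay below all WT mice and the other 3 KO mice above them. The log2 fold change was 0.62 (SE 0.424, 95% interval -0.25 to 1.497, adjusted p 0.635 by edgeR). Psmb1, Psmb2 and Psmb4, also structural, had log2 fold changes of -0.02, 0.10 and 0.00. Psmb1 reached 72.5 CPM in KO mouse 1, while the other 7 mice lay between 31.9 and 59.2 CPM. Psmb11, the subunit of the thymus-specific proteasome, had 0 or 1 count in each library and was not tested. A count of 0 allows up to 3 counts, or 0.201 to 0.839 CPM in these libraries, for counting error only.

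The 7 alpha ring genes Psma1 to Psma7 had a median coefficient of variation of 16.5% among KO mice and 8.20% among WT mice. It was 16.5% and 16.6% over the 35 tested members, and 22.1% and 22.2% over all genes tested. These sets were not matched for level. Log2 fold changes of the alpha ring ran from -0.10 (Psma6) to 0.25 (Psma3). Psma3 (chromosome 12, 70974621 to 70996347) was at 68.3, 57.8, 50.6 and 39.9 CPM in KO mice 1 to 4, against 50.1, 42.0, 43.7 and 46.3 CPM in WT mice 1 to 4. KO mice 1 to 3 lay above the WT mice and KO mouse 4 below them (log2 fold change 0.25, SE 0.199, adjusted p 0.710 by edgeR). Psma7 (chromosome 2, 180036374 to 180042433) had the highest level per length and was at 181, 142, 163 and 129 CPM in KO mice 1 to 4, against 145, 148, 128 and 156 CPM in WT mice 1 to 4. KO mice 1 and 3 lay above every WT mouse, WT mouse 3 lay below every KO mouse, and the others overlapped (log2 fold change 0.10, SE 0.140, adjusted p 0.868 by edgeR). Psma6 averaged 118 ± 10.7 CPM in KO mice and 128 ± 4.50 CPM in WT mice (SD, n = 4). Psma1, Psma2, Psma4 and Psma5 had log2 fold changes of 0.05, 0.05, 0.17 and 0.02. Psma2 was highest in KO mouse 1 and WT mouse 4, at 124 and 125 CPM, and lay between 84.0 and 92.4 CPM in the other 6 mice.

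Psma8, the alpha subunit that replaces Psma7 in the testis proteasome, was the member with the smallest p. It was at 6.29, 7.79, 3.88 and 5.01 CPM in KO mice 1 to 4, against 8.84, 12.6, 12.5 and 10.0 CPM in WT mice 1 to 4. Each KO mouse lay below each WT mouse. Psma8 was the only 1 of 35 members whose groups did not overlap, and 2.93% of all genes tested separated in this direction and 2.88% in the other. The log2 fold change was -0.99 (SE 0.386, 95% interval -1.79 to -0.20), which did not pass (unadjusted p 0.0166, adjusted p 0.315 by edgeR). It rested on 27 to 64 counts per library. No annotated transcript of another gene shared a 50-base window with it (0%).

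**Figure D3:**
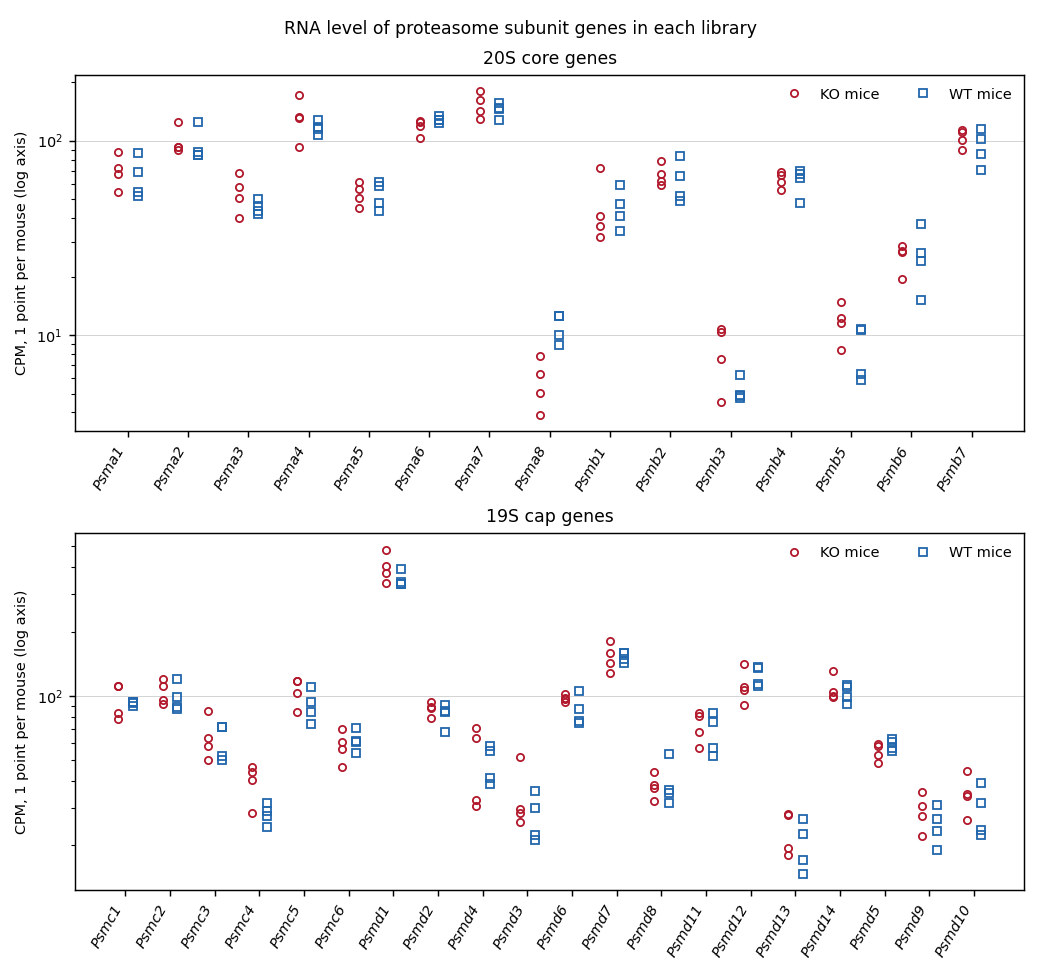
Level of each tested 20S core gene (top) and 19S cap gene (bottom) in each library, in CPM on a log axis, with 1 point per mouse. KO mice are red circles and WT mice blue squares. Psma8, at 3.88 to 7.79 CPM in KO mice and 8.84 to 12.6 CPM in WT mice, is the gene whose groups separate.

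In the 19S cap the ATPase ring, Psmc1 to Psmc6, had log2 fold changes from -0.08 (Psmc6) to 0.54 (Psmc4). Psmc4 (chromosome 7, 28041707 to 28050101, minus strand), the RPT3 subunit, was at 46.7, 28.5, 44.1 and 40.7 CPM in KO mice 1 to 4, against 24.4, 31.6, 29.0 and 27.6 CPM in WT mice 1 to 4. KO mice 1, 3 and 4 lay above every WT mouse and KO mouse 2 lay among them. The log2 fold change of 0.54 (SE 0.227, 95% interval 0.07 to 1.00) did not pass over all genes (unadjusted p 0.0265, adjusted p 0.364 by edgeR). Psmc5 (chromosome 11, 106256154 to 106263120), the RPT6 subunit, was at 118, 84.5, 117 and 103 CPM in KO mice 1 to 4, against 111, 73.8, 84.4 and 94.1 CPM in WT mice 1 to 4. Its groups overlapped (log2 fold change 0.21, SE 0.164, adjusted p 0.691 by edgeR). The other ATPases Psmc1, Psmc2 and Psmc3 had log2 fold changes of 0.06, 0.09 and 0.02.

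The non-ATPase subunits of the base are Psmd1 and Psmd2, the scaffolds that receive ubiquitin carriers, and the ubiquitin receptor Psmd4. Psmd1 (chromosome 1, 86064387 to 86139151) had the highest level per length of the cap and was at 336, 376, 484 and 406 CPM in KO mice 1 to 4, against 393, 335, 332 and 340.0 CPM in WT mice 1 to 4. Its highest and second highest mice were KO, but WT mouse 1 exceeded KO mice 1 and 2. The log2 fold change was 0.20 (SE 0.121, 95% interval -0.05 to 0.45, adjusted p 0.587 by edgeR). The log2 fold change was 0.09 for Psmd2 and -0.02 for Psmd4. Psmd4 was uneven among KO mice, with 70.6 and 63.3 CPM in mice 1 and 4 against 32.7 and 30.5 CPM in mice 2 and 3.

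The 8 lid genes include Psmd14, the deubiquitinase of the lid, which had a log2 fold change of 0.06 (95% interval -0.26 to 0.37). Over the 8, log2 fold changes ran from -0.16 (Psmd12) to 0.27 (Psmd3). Psmd6 (chromosome 14, 14112174 to 14120984, minus strand) was at 97.5, 94.1, 102 and 96.9 CPM in KO mice 1 to 4, against 74.9, 87.3, 76.2 and 106 CPM in WT mice 1 to 4. The KO mice lay close together, below WT mouse 4 and above the other 3 WT mice (log2 fold change 0.18, SE 0.158, adjusted p 0.739 by edgeR). Psmd12 (chromosome 11, 107479484 to 107504362) was at 140.5, 90.6, 107 and 110.1 CPM in KO mice 1 to 4, against 135, 111, 114 and 137 CPM in WT mice 1 to 4. KO mouse 1 was above all WT mice and the other 3 KO mice below them (log2 fold change -0.16, SE 0.155, adjusted p 0.773 by edgeR). Psmd3 averaged 33.9 ± 12.0 CPM in KO mice and 27.3 ± 6.92 CPM in WT mice (SD, n = 4), with 51.7 CPM in KO mouse 1. The lid subunits Psmd7, Psmd8, Psmd11 and Psmd13 had log2 fold changes of 0.01, -0.02, 0.14 and 0.16. The symbols Psmd5, Psmd9 and Psmd10 belong to chaperones that assemble the base and leave the finished particle. Their log2 fold changes were -0.10, 0.14 and 0.27, with adjusted p of at least 0.744 by edgeR. Psmd9 (chromosome 5, 123169413 to 123250131) was at 27.4, 35.4, 22.1 and 30.6 CPM in KO mice 1 to 4, against 23.4, 19.02, 30.9 and 26.6 CPM in WT mice 1 to 4, and its groups overlapped.

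Per kilobase of exon, RNA levels differed widely between subunit genes. The numbers of their proteins were not measured. Over the 31 tested genes left without Psma8 and the 3 chaperones, levels ran from 10.8 (Psmb3) to 130.3 CPM per kilobase (Psma7) in KO mice, a 12.0-fold range. In WT mice they ran from 6.77 (Psmb3) to 122 CPM per kilobase (Psma7), an 18.1-fold range. The medians were 42.3 CPM per kilobase in KO mice and 42.7 CPM per kilobase in WT mice. Psmd9 was the lowest of the whole cap, at 11.1 ± 2.16 CPM per kilobase in KO mice and 9.63 ± 1.94 CPM per kilobase in WT mice (SD, n = 4).

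Some members share sequence with other annotated genes, through copies elsewhere or through overlap at the same place. Windows of 50 bases were compared on either strand, so both kinds count. The shared windows of Psmb7 (28.1%) were with the overlapping gene Nek6 only. Of the 50-base windows of the coding transcripts, 55.8% of Psmb3, 54.1% of Psmb5 and 55.4% of Psma5 also occurred in an annotated transcript of another gene, such as the pseudogene Psmb5-ps, and such reads can be lost in counting. These 3 genes had a median of 11.2 CPM per kilobase over all mice, against 53.9 CPM per kilobase for the 16 tested members with no shared window (0%). Psma5 was not low, at 43.1 ± 5.53 CPM per kilobase in KO mice and 42.7 ± 7.04 CPM per kilobase in WT mice (SD, n = 4). Over the 35 tested members, level per kilobase had a Spearman correlation of -0.17 with the share of shared windows. It was -0.34 with exon length and -0.24 with GC content. Over the 15 genes with under 1% of shared windows and of overlap with exons of another gene, levels ran from 15.8 (Psmd3) to 130.3 CPM per kilobase in KO mice and from 12.7 (Psmd3) to 122 CPM per kilobase in WT mice. This was an 8.26-fold range in KO mice and a 9.62-fold range in WT mice. The part of read loss in the order of levels was not tested.

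**Figure D4:**
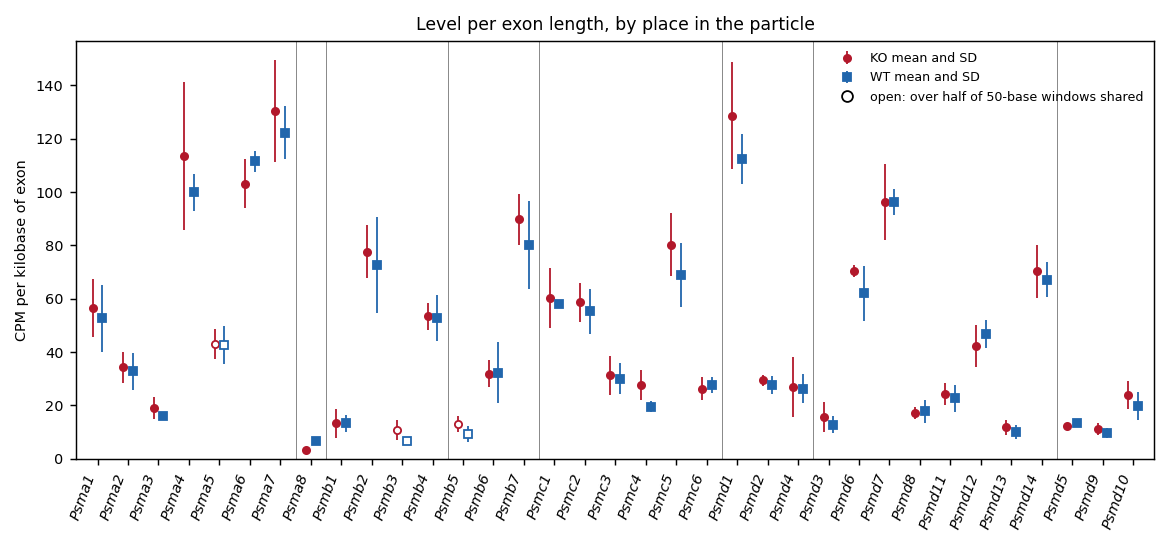
Level per kilobase of exon of each tested gene, as mean and SD of 4 KO mice (red circles) and 4 WT mice (blue squares), with vertical lines between places in the particle: alpha ring, testis paralogue, other beta, catalytic beta, ATPase ring, other base, lid and assembly chaperones. Open symbols mark genes with over 50% of their 50-base windows shared with another gene. Psma7 is highest, at 130.3 in KO mice and 122 in WT mice, and each gene keeps close to the same level in both groups relative to the spread between genes.

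The immunoproteasome subunits Psmb8, Psmb9 and Psmb10 replace Psmb5, Psmb6 and Psmb7 in new particles of blood cells and of cells that respond to interferon. Psmb8 was at 89.4 ± 6.53 CPM per kilobase in KO mice and 83.9 ± 3.79 CPM per kilobase in WT mice, Psmb9 at 66.8 ± 10.7 and 61.3 ± 10.8, and Psmb10 at 18.1 ± 1.01 and 13.96 ± 3.16 (SD, n = 4). Antisense genes overlap part of the exons of Psmb8 (11.4%) and Psmb9 (15.7%). None of the 3 passed edgeR's test, with adjusted p of at least 0.684. Within a library, the ratio of Psmb8 to Psmb5 per exon length was 5.89, 7.20, 5.98 and 9.21 in KO mice 1 to 4, against 7.16, 11.8, 12.3 and 7.004 in WT mice 1 to 4. Psmb8 RNA exceeded Psmb5 RNA in all 8 mice. Reads lost from Psmb5 to its copies would raise this ratio, and their part was not tested. Psmb9 exceeded Psmb6 in all 8 mice too, with ratios of 1.90, 2.49, 1.69 and 2.38 in KO mice 1 to 4, against 2.46, 2.54, 1.95 and 1.24 in WT mice 1 to 4.

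The third pair went the other way. Psmb10 was below Psmb7 in each mouse, with ratios of 0.192, 0.246, 0.198 and 0.179 in KO mice 1 to 4, against 0.159, 0.163, 0.238 and 0.148 in WT mice 1 to 4. The difference of the mean log2 ratio, KO minus WT, was -0.41 for Psmb8 over Psmb5, 0.08 for Psmb9 over Psmb6 and 0.22 for Psmb10 over Psmb7. By exact two-sided permutation tests over the 8 libraries these gave p of 0.229, 0.886 and 0.286, and 0.429, 0.886 and 0.429 adjusted over the 3 pairs, where 0.0286 is the smallest p the design allows.

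**Figure D5:**
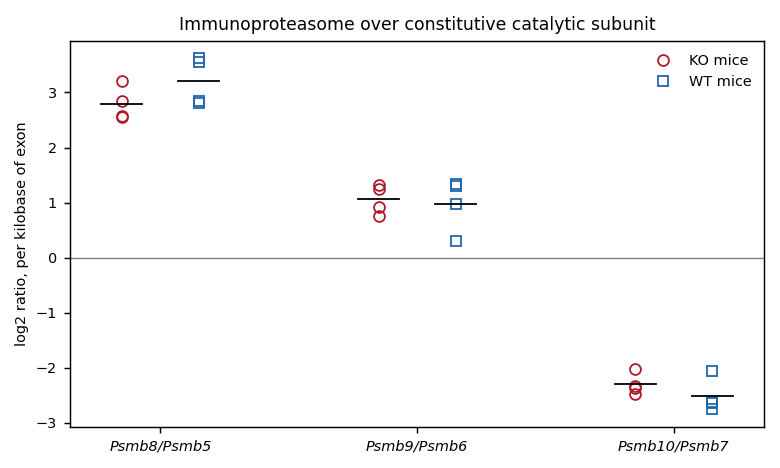
Log2 ratio of each immunoproteasome catalytic subunit to its constitutive counterpart, per kilobase of exon, with 1 point per mouse and the group mean as a line. KO mice are red circles and WT mice blue squares. Psmb8 over Psmb5 and Psmb9 over Psmb6 lie above 0 and Psmb10 over Psmb7 below 0 in every mouse, and the groups overlap in each pair.

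Among genes that act with the proteasome, none was called either. Of 43 genes in 7 lists, 42 were tested, and 0 were higher and 0 lower by edgeR over all genes, as by DESeq2 and limma voom, against 0.252% higher and 0.330% lower among all genes by edgeR. Before adjustment, 2 of the 42 had a p under 0.05 as higher (Pomp and Zfand2a) and 1 as lower (Zfand5), against 5.75% and 5.45% of all genes, so these counts did not exceed the background. The median log2 fold change over the 42 was 0.01, against 0.00 over all genes tested. It was above 0 for 22 of them and below 0 for 20, where 50.2% of all genes lay above 0. The ubiquitin gene Ubb, with 4 to 11 counts per library, was not tested.

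Among assembly factors of the core, Pomp, the chaperone that matures the beta ring, was at 198 ± 47.4 CPM in KO mice and 150.1 ± 27.1 CPM in WT mice (SD, n = 4), a log2 fold change of 0.39 (SE 0.165, adjusted p 0.369 by edgeR). The chaperones Psmg1 and Psmg4 had log2 fold changes of -0.47 and 0.59, both with intervals across 0. Of the activators, Psme2 and Psme1, which form the PA28 ring, had log2 fold changes of 0.33 and 0.21, and the inhibitor Psmf1 of -0.41. Of the cap partners, the small subunit Sem1 (listed as Shfm1) had a log2 fold change of -0.49, the ubiquitin receptor Adrm1 of 0.57 and Ecpas (listed as AI314180), a proteasome adaptor, of -0.04. None of these 8 passed, with adjusted p of at least 0.508 by edgeR.

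The regulators of proteasome gene expression and activity held both of the other genes with an unadjusted p under 0.05. Zfand2a, a stress-induced protein that binds the cap, was at 43.7, 48.7, 49.8 and 44.9 CPM in KO mice 1 to 4, against 50.1, 23.2, 28.0 and 24.7 CPM in WT mice 1 to 4. WT mouse 1 was the highest of all 8, and the other 3 WT mice lay below the KO mice (log2 fold change 0.55, SE 0.231, adjusted p 0.355 by edgeR). Zfand5, a proteasome activator, was at 183 ± 21.7 CPM in KO mice and 228 ± 37.4 CPM in WT mice (SD, n = 4, log2 fold change -0.31, adjusted p 0.376 by edgeR). Nfe2l1, the regulator of subunit genes, was at 125 ± 25.3 CPM in KO mice and 134 ± 35.6 CPM in WT mice (SD, n = 4, log2 fold change -0.08), and Ngly1, the enzyme that activates it by removing sugars, had a log2 fold change of -0.17 (adjusted p 0.761 by edgeR). Of the ubiquitin genes and activating enzymes, the activating enzymes Uba1 and Uba6 had log2 fold changes of 0.19 and 0.18. Of the ubiquitin shuttles and p97 partners, Nploc4 had a log2 fold change of 0.24 and Rad23b of -0.12, with adjusted p of at least 0.588 over these 4 genes by edgeR.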

How the data were processed

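The authors deposited, for each library, a table of counts, the unnormalized numbers of reads assigned to each gene symbol. Per the labels' protocols, total RNA was amplified into cDNA with a Nugen Ovation kit, mapped with STAR (2.4.0d-2) and counted with htseq-count, and the submitters' processing notes name mm10. The sources used here do not name the annotation or the strand setting. No molecular identifiers are recorded, so floors cover counting error only. The intervals of fold changes come from the edgeR fit and include the spread between mice.

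Counts were filtered with edgeR's filterByExpr (minimum count 10, minimum total 15) and scaled by TMM (factors 0.974 to 1.03). KO was compared with WT by edgeR 4.0.16 (R 4.3.3, robust quasi-likelihood test, genotype as the only term), with Benjamini-Hochberg adjustment over all 11498 genes. CPM are counts divided by the TMM-adjusted library total, on edgeR's scale, and SDs are over 4 mice. DESeq2 1.42.0 and limma voom 3.58.1, always with sample weights, were alternatives. Beside them stood other scalings, filters, thinned counts, a block for the mouse number and omission of each library. Lengths are unions of exons of coding transcripts in GENCODE M21 basic, of the same build. The procedure was also tested on simulated counts, a check of the code that does not bear on the result for the members.

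The members and lists were chosen with earlier results of these data known. Values in every mouse are given for Psmb5, Psmb6 and Psmb7, any member past the threshold, and, in the core and in the cap, the 4 smallest p, the highest and lowest fold and the highest and lowest level per length. From each related list the 3 smallest p are given, except for 2 genes that are not reported here, and 4 list genes were found under older symbols. Nfe2l1 and the other values of single members were chosen after values were seen. The labels number 4 mice per group.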

Additional observations from a re-analysis of the deposited data

Results flagged for a closer look

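In 8 of 124 groups of 4 mice, 1 mouse lay far from the other 3, with a gap above Dixon's critical share of the range of 0.829. Chance gives such a gap in about 5% of groups. KO mouse 1 was high in 3 of the 8, at 124 CPM for Psma2 (89.7 to 92.4 CPM in the other KO mice), 51.7 CPM for Psmd3 (25.8 to 29.7 CPM) and 0.27 for the mean centred log2 level of the 20S core (-0.06 to -0.03). WT mouse 1 was high at 6.24 CPM for Psmb3 (4.76 to 4.90 CPM in the other WT mice) and 393 CPM for Psmd1 (332 to 340.0 CPM). WT mouse 4 was high at 125 CPM for Psma2 (84.0 to 87.8 CPM) and WT mouse 2 at 284 CPM for Zfand5 (205 to 212 CPM). KO mouse 3 was low at 20.5 CPM for Psmg1 (27.0 to 27.9 CPM).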

How the results depend on the processing

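The count of proteasome subunit genes called stayed at 0 higher and 0 lower under all 18 alternatives, as did the count over the related lists under all 17 of theirs. The median log2 fold change of the 20S core ran from 0.01 to 0.14 (0.08 without Psma8, an alternative chosen after seeing the data) and that of the 19S cap from 0.05 to 0.13. Over all genes, the counts of 29 higher and 38 lower became 108 and 90 with no filter and 78 and 76 with DESeq2. Limma voom gave 25 lower. Leaving out 1 library gave 14 to 33 higher and 21 to 38 lower. Values near 0 changed sign: Psmb6 to 0.0054 with the replicate block and 0.0274 with thinned counts, and between -0.20 and 0.18 when 1 library was left out. With 1 library left out, Psmb9 ran from -0.0076 to 0.20 and the Psmb9 to Psmb6 log2 ratio difference from -0.14 to 0.21. The cause was not tested. The mouse numbers share only a number: deviations of same-numbered mice correlated at -0.09 to -0.01, 0 of 8 libraries correlated best with their own number, and the replicate block called 25 genes higher and 32 lower with 0 members among them. With the longest transcript as length, Psmb1 was at 23.0 instead of 13.2 CPM per kilobase and Psmd12 at 60.4 instead of 44.6. Depth limits Psma8, Psmb3 and Psmb5 most, at 17 to 184 counts per library.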
